A study of Mus musculus with 3 samples.

Results

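The genes described here encode 9 antagonists of bone morphogenetic proteins (BMPs) and activins: noggin (*Nog*), gremlin 1 (*Grem1*), chordin (*Chrd*), chordin-like 1 and 2 (*Chrdl1* and *Chrdl2*), follistatin (*Fst*), follistatin-like 3 (*Fstl3*), the membrane protein BAMBI (*Bambi*) and sclerostin domain containing 1 (*Sostdc1*). They were taken by symbol from the 32285 genes counted, and all 9 were found. Their transcripts were counted in cells of the bone callus, the repair tissue that bridges a fracture, from C57BL/6 mice with a femoral fracture, for which the labels give no treatment. Per the study's methods the bone was cut in mid-shaft and held by an intramedullary pin, and the analgesic buprenorphine was given around the operation. The 3 single-cell libraries came from days 7, 10 and 14 after fracture, with 1 library per day, and the number and age of the mice behind each library were not given in the sources used here. Each callus was cleaned of marrow and digested with collagenase, and live (7-AAD-negative) cells without CD45, CD31 and TER119, the surface proteins of blood, endothelial and erythroid cells, were sorted. With 1 library per day there is no replicate: no p value was computed, every interval covers counting error only, and a difference between days cannot be told apart from a difference between libraries.

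BMPs are secreted ligands that bind paired type I and type II serine/threonine kinase receptors on the cell surface, and the receptors phosphorylate SMAD proteins that carry the signal to the nucleus. Noggin, gremlin 1, chordin and the chordin-like proteins bind BMPs outside the cell and keep them from their receptors, follistatin and follistatin-like 3 bind mainly activins and also some BMPs, and BAMBI resembles a type I receptor but lacks the kinase domain. BMP signaling is needed for cartilage formation, for the transition of cartilage to bone and for fracture repair, and several of the antagonists are themselves transcribed in response to BMP.

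Cells were grouped by 5 marker genes. Among cells with 500 to 5000 genes and no unique molecular identifier (UMI, a tag that marks 1 captured transcript) of *Ptprc*, which encodes CD45, a cell was called high for *Aspn*, *Cnmd*, *Col10a1*, *Ifitm5* or *Rgs5* when it held at least 3 UMIs of that gene and at least 0.25 times the 99th percentile of its level. On day 10 this gave 1010 *Aspn*-high, 2727 *Cnmd*-high, 380 *Col10a1*-high, 120 *Ifitm5*-high and 71 *Rgs5*-high cells, and 2279 cells were high for none. On day 14 the numbers were 2488, 1620, 866, 365 and 198, with 4143 high for none. The groups carried the markers their names stand for: the summed level of 5 further markers of fibroblastic osteoprogenitors, chondrocytes, hypertrophic chondrocytes, osteoblasts or pericytes was on both days highest in the group of the matching name, and no marker was at 0 there. The margin was narrow between the cartilage groups, where the hypertrophic list summed to 56363 and 54205 CPM, the UMIs of a gene per 1000000 UMIs of the group, in *Col10a1*-high cells on days 10 and 14 and to 46908 and 43087 CPM in *Cnmd*-high cells; that list also holds *Col2a1*, a gene of all chondrocytes.

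The day 7 library stood apart. Of its 7017 cells within the limits, 6276 held at least 2 UMIs of *Ptprc* and were high for no marker, although the sort removed CD45-positive cells, and only 447 held none. These left 56 *Cnmd*-high, 11 *Aspn*-high, 6 *Ifitm5*-high, 2 *Col10a1*-high and 0 *Rgs5*-high cells, so that day 7 levels are given for *Cnmd*-high cells alone and the comparisons below rest on days 10 and 14. The libraries held 113127788, 144103160 and 195661880 UMIs on days 7, 10 and 14, and any pair of them shared 29 to 42 cell barcodes. The day 14 cells with at least 2 *Ptprc* UMIs that were high for no marker (98 cells, called *Ptprc*-positive) served to show how many UMIs of each antagonist come with RNA from other cells: they held *Bambi* at 36.4 CPM (25.5 to 50.4), *Fst* at 20.2 CPM (12.4 to 31.2) and *Fstl3* at 10.1 CPM (4.85 to 18.6), *Nog* at 2.02 CPM (0.245 to 7.31), *Chrd* and *Chrdl1* at 1.01 CPM each (0.0256 to 5.63), and no UMI of *Grem1* or *Chrdl2*, which allows up to 3.73 CPM by the exact Poisson interval. Day 14 levels at or below the upper ends of these intervals cannot be told apart from such RNA by this reference alone. The reference cells were shallower, at a median of 7329 UMIs against 9262.5 to 20875 UMIs in the 5 groups. Whether they held transcripts of their own was not tested. On day 10 only 3 such cells were found, so that library has no such reference.

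In the GENCODE annotation of mouse build GRCm38, *Nog* is a gene of 1 exon on chromosome 11 (89300638 to 89302332, minus strand), *Grem1* lies on chromosome 2 (113746164 to 113758646, minus strand), *Chrd* on chromosome 16 (20733127 to 20742384, plus strand), *Chrdl1* on chromosome X (143285674 to 143394262, minus strand) and *Chrdl2* on chromosome 7 (100006172 to 100034728, plus strand). *Fst* lies on chromosome 13 (114452290 to 114458951, minus strand), *Fstl3* on chromosome 10 (79777272 to 79782630, plus strand) and *Sostdc1* on chromosome 12 (36314139 to 36318452, plus strand). None of these, nor *Bambi*, overlaps another gene on its own strand. *Chrd*, *Fst* and *Fstl3* each overlap 1 gene on the opposite strand (*Thpo*, *Gm47040* and *Prss57*).

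RefSeq promoters (GRCm38.p6) were found for only 3 of the 9 genes, *Grem1*, *Chrd* and *Fstl3*, and the 250 bases before each start are shown. These 3 were also the antagonists at least 2-fold higher in *Aspn*-high cells than in the other 4 groups on day 10 under CPM. With size factors from medians of ratios, another scaling, their log2 ratios were 0.90, 0.89 and 0.92, below 2-fold. The promoters lie at chr2:113758649-113758898 (minus strand), chr16:20732877-20733126 (plus strand) and chr10:79777024-79777273 (plus strand). Each is printed 5′ to 3′ on the strand of its gene, with matches to the searched motifs in capitals.
Grem1: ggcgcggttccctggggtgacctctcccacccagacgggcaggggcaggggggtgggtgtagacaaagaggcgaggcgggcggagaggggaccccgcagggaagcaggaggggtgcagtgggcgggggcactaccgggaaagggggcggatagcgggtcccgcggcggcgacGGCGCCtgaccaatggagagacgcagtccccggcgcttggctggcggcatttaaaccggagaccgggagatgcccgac
Chrd: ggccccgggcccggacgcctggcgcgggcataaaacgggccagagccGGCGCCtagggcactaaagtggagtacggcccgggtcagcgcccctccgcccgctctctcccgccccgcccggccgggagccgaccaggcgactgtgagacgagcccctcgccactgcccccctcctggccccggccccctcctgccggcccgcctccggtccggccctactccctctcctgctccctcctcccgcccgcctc
Fstl3: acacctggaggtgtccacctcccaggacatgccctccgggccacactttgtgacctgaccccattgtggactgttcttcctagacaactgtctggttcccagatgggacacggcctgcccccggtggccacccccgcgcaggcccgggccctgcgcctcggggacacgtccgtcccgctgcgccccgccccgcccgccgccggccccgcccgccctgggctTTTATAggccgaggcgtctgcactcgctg
The 3 were rich in G and C (72%, 78% and 71.2% of bases). Both strands were searched for GGCGCC (a GC-rich element that SMAD proteins can bind), TGTGGT (RUNX), TATAAA (a core promoter element) and CAGCTG (E-box). GGCGCC stood 78 bases before the start of *Grem1* and 203 bases before that of *Chrd*, and 9.59% of the 32851 promoters of the same length held it. TATAAA was found 29 bases before the start of *Fstl3*, read on the opposite strand, and in 12.4% of all promoters, while TGTGGT and CAGCTG, held by 14.0% and 13.0%, were in none of the 3. A match describes the letters and not a bound site.

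*Nog* was highest in *Col10a1*-high cells. Noggin binds BMP2, BMP4 and related ligands with high affinity. On day 10 its level was 71.4 CPM (95% Poisson interval, 65.0 to 78.2; 462 UMIs) in *Col10a1*-high, 9.73 in *Cnmd*-high, 8.65 in *Aspn*-high, 6.43 in *Ifitm5*-high and 0 in *Rgs5*-high cells, and on day 14 it was 73.6 CPM (69.3 to 78.0; 1111 UMIs), 11.6, 3.83, 7.28 and 2.36 CPM in the same order. *Col10a1*-high cells thus stood 7.33-fold and 6.33-fold above the next group, *Cnmd*-high cells, on days 10 and 14. Below them the order was not resolved on day 10, where the intervals of the ratios of *Cnmd*-high over *Aspn*-high and of *Aspn*-high over *Ifitm5*-high cells held 0 on the log2 scale. On day 14, *Aspn*-high, *Ifitm5*-high and *Rgs5*-high cells lay inside the interval of the level in *Ptprc*-positive cells. With each cell thinned to 5000 UMIs, 20.5% of *Col10a1*-high cells held a *Nog* UMI on day 10 (95% Clopper-Pearson interval, 16.4 to 25.1; 43.9% before thinning) and 22.8% on day 14 (19.9 to 25.8; 42.7% before thinning), against at most 4.20% in the other 4 groups and 0 of 74 *Ptprc*-positive cells, which allows up to 4.86%. The highest count in 1 cell of this group was 23 UMIs. Of all *Nog* UMIs in cells without *Ptprc*, *Col10a1*-high cells held 29.0% on day 10 and 34.6% on day 14, and the cells high for no marker, where the level was 13.0 and 25.2 CPM, held 30.0% and 47.5%.

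*Grem1* was lowest where *Nog* was highest, in *Col10a1*-high cells. On day 10 these were not separated from the next group, *Rgs5*-high cells (log2 ratio of *Rgs5*-high over *Col10a1*-high 2.79, -0.11 to 5.69). Gremlin 1 belongs to the DAN family and binds BMP2, BMP4 and BMP7. It was highest on day 10 in *Aspn*-high cells at 25.2 CPM (22.7 to 27.9), followed by *Cnmd*-high cells at 12.6, *Ifitm5*-high at 3.22, *Rgs5*-high at 3.20 and *Col10a1*-high cells at 0.464 CPM, the last from 3 UMIs. On day 14 *Cnmd*-high cells led at 12.3 CPM (11.2 to 13.6), ahead of *Aspn*-high cells at 9.45 CPM (8.47 to 10.5), and the other groups held 3.30 CPM (*Rgs5*-high), 1.09 (*Ifitm5*-high) and 0.199 (*Col10a1*-high). The first place therefore changed between the libraries, with *Aspn*-high cells 2.00-fold above *Cnmd*-high cells on day 10 and *Cnmd*-high cells 1.31-fold above *Aspn*-high cells on day 14. In *Col10a1*-high cells the gene gave 3 UMIs on each day, and on day 14 *Rgs5*-high, *Ifitm5*-high and *Col10a1*-high cells all lay under the 3.73 CPM that 0 UMIs in *Ptprc*-positive cells allow. Single cells could hold many copies, up to 37 UMIs in a *Cnmd*-high cell on day 10, while the share of cells with a UMI after thinning was 7.38% (5.82 to 9.20) in *Aspn*-high cells on day 10 and 3.65% (2.93 to 4.49) on day 14.

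*Chrd* was rare everywhere. Chordin holds BMPs in a complex that astacin-type proteases such as BMP1 and TLL1 cleave. Its level was 5.03 CPM in *Aspn*-high, 2.26 in *Cnmd*-high, 0.464 in *Col10a1*-high, 5.06 in *Ifitm5*-high and 3.20 in *Rgs5*-high cells on day 10, and 8.05, 2.67, 0.662, 5.09 and 0.942 CPM on day 14. *Aspn*-high cells were above *Ifitm5*-high cells on day 14 (log2 ratio 0.66, 95% exact binomial interval 0.10 to 1.27), whereas on day 10 these groups were level, with an interval from -1.06 to 0.93 for *Ifitm5*-high over *Aspn*-high cells. On day 14 every group but *Aspn*-high cells lay inside the interval of the level in *Ptprc*-positive cells. No cell held more than 3 UMIs.

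The chordin-like genes were both highest in *Cnmd*-high cells. Both proteins carry the cysteine-rich domains of chordin and bind BMPs. *Chrdl1* was at 93.6 CPM in *Cnmd*-high cells on day 10 (91.0 to 96.3; 4897 UMIs), against 32.6 in *Col10a1*-high, 25.7 in *Ifitm5*-high, 15.2 in *Aspn*-high and 6.39 in *Rgs5*-high cells, and at 72.2 CPM on day 14 (69.3 to 75.1), against 19.3, 10.4, 22.6 and 1.88 CPM. *Cnmd*-high cells were 2.87-fold and 3.20-fold above the next group on days 10 and 14. The next group was *Col10a1*-high cells on day 10, not separated from *Ifitm5*-high cells, and *Aspn*-high cells on day 14. *Chrdl2* was lower and more narrowly distributed: 13.1 CPM in *Cnmd*-high cells on day 10 (12.1 to 14.1) and 27.1 CPM on day 14 (25.3 to 28.9), with every other group between 0.919 and 1.82 CPM on the 2 days. The lead over the next group was 12.1-fold and 14.9-fold, and the order of the other 4 groups was not resolved on either day. On day 14 *Chrdl1* in *Rgs5*-high cells lay inside the interval of *Ptprc*-positive cells, and *Chrdl2* in those 4 groups lay under the 3.73 CPM that 0 UMIs there allow. A *Chrdl1* UMI was seen in 31.6% (29.9 to 33.4) and 26.0% (23.8 to 28.2) of thinned *Cnmd*-high cells and a *Chrdl2* UMI in 5.07% (4.27 to 5.98) and 7.68% (6.42 to 9.10), while neither gene was seen in the 74 thinned *Ptprc*-positive cells.

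*Fst* and *Fstl3* were both highest in *Aspn*-high cells. *Fst* measured 83.2 CPM there on day 10 (78.6 to 87.9), 66.1 in *Rgs5*-high, 48.9 in *Cnmd*-high, 20.7 in *Col10a1*-high and 10.1 in *Ifitm5*-high cells, and 96.0 CPM on day 14 (92.8 to 99.3), 41.0, 40.2, 13.0 and 12.4 CPM. *Aspn*-high and *Rgs5*-high cells were not separated on day 10 (log2 ratio 0.33, -0.04 to 0.72) and differed 2.34-fold on day 14. One *Rgs5*-high cell of day 10 held 28 of the 62 *Fst* UMIs of its group. *Fstl3* was likewise led by *Aspn*-high cells at lower levels, 33.1 CPM in *Aspn*-high, 26.6 in *Rgs5*-high, 15.3 in *Cnmd*-high, 5.51 in *Ifitm5*-high and 4.94 in *Col10a1*-high cells on day 10, and 34.3, 15.1, 18.1, 8.37 and 5.83 CPM on day 14. Here, too, *Aspn*-high and *Rgs5*-high cells were not separated on day 10 (log2 ratio 0.32, -0.26 to 0.96, from 25 UMIs in *Rgs5*-high cells). On day 14, *Fst* and *Fstl3* in *Col10a1*-high and *Ifitm5*-high cells were at or below their levels in *Ptprc*-positive cells, and *Fstl3* in *Cnmd*-high and *Rgs5*-high cells was inside the interval there (4.85 to 18.6 CPM). In thinned *Aspn*-high cells *Fst* was seen in 23.9% (21.2 to 26.7) and 26.7% (630 of 2356 cells) and *Fstl3* in 15.4% (13.2 to 17.8) and 14.7% (13.3 to 16.2) on days 10 and 14, against 6.76% and 5.41% of *Ptprc*-positive cells, whose median depth was 7329 UMIs against 14390.5 UMIs in *Aspn*-high cells on day 14. *Fst* was uneven between cells, with up to 39 UMIs in 1 *Cnmd*-high cell, and *Fstl3* was even, with at most 8 in any cell of the 5 groups.

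*Bambi* was the most abundant of the 9 in *Ifitm5*-high, *Col10a1*-high and *Cnmd*-high cells, on a scale that counts each captured transcript once at its 3′ end and needs no correction for length. The gene lies on chromosome 18 (3507923 to 3516404, plus strand). On day 10 it measured 369 CPM in *Ifitm5*-high cells (344 to 396), 255 in *Col10a1*-high (243 to 268), 125 in *Cnmd*-high, 49.8 in *Aspn*-high and 26.6 in *Rgs5*-high cells. On day 14 the levels were 306 CPM (292 to 321), 285 (276 to 293), 114, 30.5 and 36.3 CPM. The order of the first 3 groups held on both days, but the gap between *Ifitm5*-high and *Col10a1*-high cells was 1.45-fold on day 10 and 1.08-fold on day 14. The levels in *Aspn*-high and *Rgs5*-high cells on day 14 were close to the 36.4 CPM in *Ptprc*-positive cells, and their order was not resolved. After thinning, 65.5% (56.0 to 74.2) and 67.5% (62.1 to 72.6) of *Ifitm5*-high cells and 61.8% (56.5 to 66.9) and 61.0% (57.6 to 64.4) of *Col10a1*-high cells held a *Bambi* UMI on days 10 and 14, against 6.76% (2.23 to 15.1) of *Ptprc*-positive cells. Cells high for no marker held 39.1% and 47.2% of the *Bambi* UMIs in cells without *Ptprc*, at 170 and 163 CPM. For *Grem1*, *Chrd*, *Chrdl1*, *Chrdl2*, *Fst* and *Fstl3* their share was between 15.3% and 39.7% on these days.

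*Sostdc1*, whose protein binds BMPs and Wnt co-receptors, was not detectable at this depth as a transcript of any group. It gave 2 UMIs in *Cnmd*-high cells on day 10 and 1 UMI in *Aspn*-high cells on day 14, none in the other groups, and 0 on day 7. A count of 0 among the UMIs of *Col10a1*-high cells on day 14 allows up to 0.244 CPM by the exact Poisson interval.

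**Figure D1:**
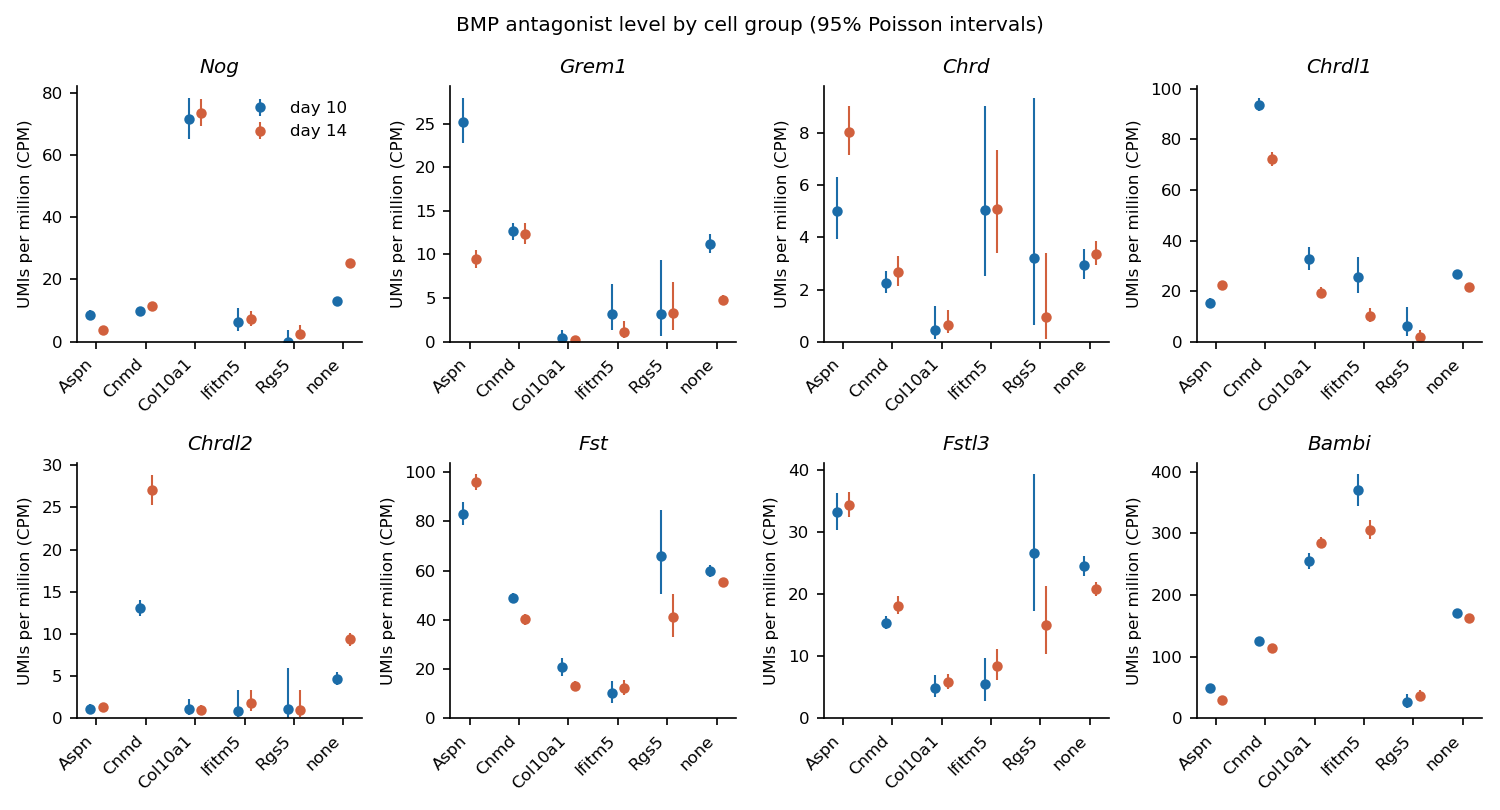
Level of 8 antagonist genes (CPM of summed UMIs, axes from 0) in 5 cell groups of the callus, named by marker, and in cells high for none, on days 10 and 14, 1 library per day. Points are levels with exact 95% Poisson intervals of counting error, and *Nog* stands highest in *Col10a1*-high cells (71.4 and 73.6 CPM), *Chrdl1* and *Chrdl2* in *Cnmd*-high cells, *Fst* and *Fstl3* in *Aspn*-high cells and *Bambi* in *Ifitm5*-high cells (369 and 306 CPM). On day 10 *Aspn*-high and *Rgs5*-high cells were not separated for *Fst* or *Fstl3*.

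To compare the groups, the level in 1 group was divided by that in the other 4 groups summed, within each library, and a gene was counted where it was at least 2-fold higher on both days. Groups weigh in this sum by their UMIs. *Cnmd*-high cells held 52295375 UMIs on day 10 and 33720039 on day 14, and *Aspn*-high cells 14908400 and 35546232. Each of the remaining groups held fewer on the same day. The make-up of the sum therefore differs between the days, and for *Aspn*-high cells it is mainly *Cnmd*-high cells. Of the 8 antagonists with enough UMIs, 2 met the rule in *Col10a1*-high cells (*Nog* and *Bambi*), where 6.19% of all 14408 genes did. The log2 ratios were 2.94 and 3.30 for *Nog* and 1.15 and 1.71 for *Bambi* on days 10 and 14. In *Cnmd*-high cells it was *Chrdl1* (2.20 and 1.86) and *Chrdl2* (3.62 and 4.41), 2 of 8 against 3.46% of all genes. In *Ifitm5*-high cells it was *Bambi* (1.62 and 1.51), 1 of 8 against 3.66% of all genes. In *Rgs5*-high cells none did, against 11.0% of all genes.

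In *Aspn*-high cells *Chrd* (1.21 and 1.80) and *Fstl3* (1.24 and 1.32) met the rule, 2 of 8 against 11.1% of all genes. Against single groups on day 10, *Chrd* was level with *Ifitm5*-high cells and *Fstl3* was not separated from *Rgs5*-high cells. The count of *Chrd* and *Fstl3* also rested on the scaling. Under CPM the median of all genes stood 0.27 and 0.24 above 0 on the log2 scale in *Aspn*-high cells on days 10 and 14, and with size factors from medians of ratios, which bring it to -0.04 and -0.07, *Chrd* was at 0.89 and 1.49 and *Fstl3* at 0.92 and 1.00, so that neither was counted. *Fst* was 2-fold higher in *Aspn*-high cells on day 14 but not on day 10 (1.67 and 0.89), and *Grem1* on day 10 but not on day 14 (1.21 and 0.30). With the size factors these were 1.35 and 0.58 for *Fst*, and 0.90 and -0.01 for *Grem1*, which then reached 2-fold on neither day. In *Cnmd*-high cells the median of all genes was at -0.30 and -0.32. The lowest ratio of any antagonist was that of *Grem1* in *Col10a1*-high cells, at -5.01 and -5.65. The median over the 8 antagonists was below that of all genes on both days in every group but *Cnmd*-high cells. It was -1.68 and -2.19 against -0.02 and -0.18 in *Col10a1*-high cells, where 6 of the 8 had ratios below 0. In *Ifitm5*-high cells it was -1.60 and -1.70 against -0.12 and -0.27. In *Rgs5*-high cells it was -2.16 and -2.02 against 0.09 and 0.11, and in *Aspn*-high cells 0.01 and -0.41 against 0.27 and 0.24.

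**Figure D2:**
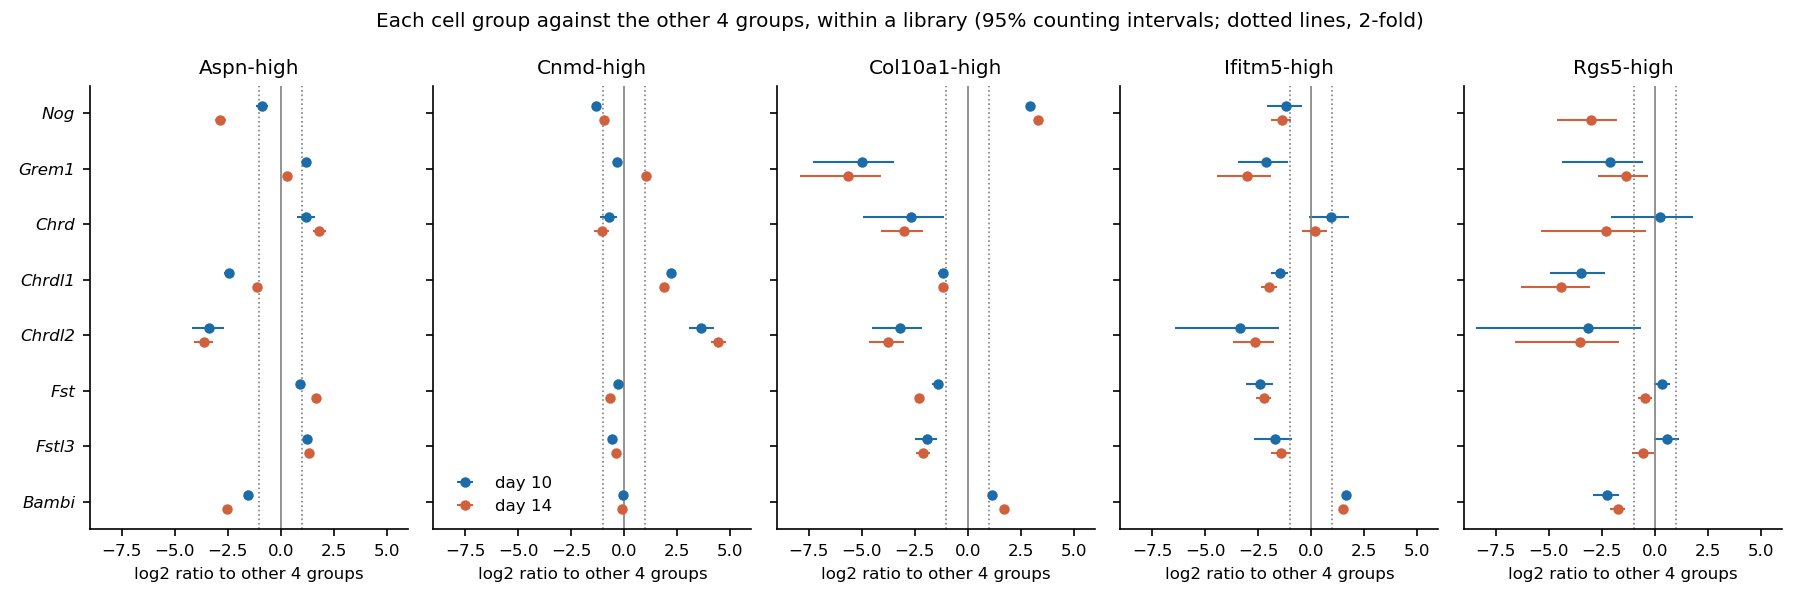
Log2 ratio of each antagonist in 1 cell group over the other 4 groups summed, on days 10 and 14, with exact 95% binomial intervals of counting error. Only ratios past 1 on both days were counted as higher: *Nog* and *Bambi* in *Col10a1*-high, *Chrdl1* and *Chrdl2* in *Cnmd*-high, *Chrd* and *Fstl3* in *Aspn*-high and *Bambi* in *Ifitm5*-high cells; *Chrd* and *Fstl3* are no longer counted with size factors from medians of ratios.

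The 2 cartilage groups were then ordered cell by cell from high *Cnmd* to high *Col10a1*, an order that uses none of the antagonists, and cut into 5 bins of equal cell number. *Nog* climbed along this order at every step, through 1.35, 2.92, 4.75, 12.9 and 61.5 CPM on day 10 and 4.45, 7.39, 13.5, 63.7 and 76.4 CPM on day 14. *Grem1* went down at every step, through 18.4, 15.1, 13.9, 7.90 and 1.39 CPM on day 10 and 18.0, 11.9, 9.09, 1.94 and 0 CPM on day 14. The largest step of *Nog* lay between the fourth and the fifth bin on day 10 and between the third and the fourth on day 14, as did that of *Ihh*, which encodes the hedgehog ligand of prehypertrophic cartilage and went from 50.9 to 645 CPM and from 108 to 755 CPM at the same steps. The same bin holds different cells on the 2 days. *Col10a1*-high cells numbered 380 beside 2727 *Cnmd*-high cells on day 10 and 866 beside 1620 on day 14. *Col10a1* in the fourth bin was at 188 CPM on day 10 and 24468 CPM on day 14. A shift of a step by 1 bin between the days therefore cannot be read as a change in the order.

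*Bambi* went the way of *Nog* with a smaller span, from 81.8 to 273 CPM on day 10, and on day 14 from 69.9 through 83.0 and 152 to 289 CPM in the fourth bin and 271 CPM in the last. *Chrdl1* was nearly flat over the first 4 bins on day 10 (102, 91.8, 86.3 and 90.3 CPM) and lower in the last (65.3 CPM). On day 14, where the fourth bin was already rich in *Col10a1*, it went through 65.8, 74.8, 70.6, 44.5 and 13.4 CPM. *Chrdl2* peaked within the order, in the fourth bin on day 10 (14.9 CPM) and in the third on day 14 (32.7 CPM), before 7.11 and 0.618 CPM in the last. *Fst* ran from 60.5 to 15.0 CPM and from 53.0 to 13.6 CPM, and *Fstl3* from 13.5 to 9.11 CPM and from 17.8 to 5.07 CPM. *Fstl3* was highest in between, in the fourth bin on day 10 (18.4 CPM) and in the second on day 14 (20.2 CPM). *Chrd* ran from 2.89 to 0.607 CPM and from 2.12 to 0.247 CPM, the last from 2 UMIs. On day 14 the first and last bins of *Fstl3* and *Chrd* lay inside the intervals of their levels in *Ptprc*-positive cells. So did the first bin of *Nog* (4.45 CPM) and the last bin of *Fst* (13.6 CPM). The fourth and last bins of *Grem1* and the last bin of *Chrdl2* lay under the 3.73 CPM that 0 UMIs there allow. *Grem1*, *Chrd*, *Chrdl1*, *Chrdl2*, *Fst* and *Fstl3* were thus lower at the *Col10a1* end and *Nog* and *Bambi* higher. From first to last bin every log2 ratio of these genes with UMIs in both bins had an interval on 1 side of 0. With 10 bins in place of 5 the direction of these ratios was the same, but *Nog* and *Grem1* no longer went 1 way at every step, and the day 10 ratio went from -0.64 to -1.86 for *Chrdl1* and from -0.87 to -4.15 for *Chrdl2*. In these 10 bins *Fst* on day 10 was at 6.87 CPM in the ninth bin and 25.3 CPM in the last.

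**Figure D3:**
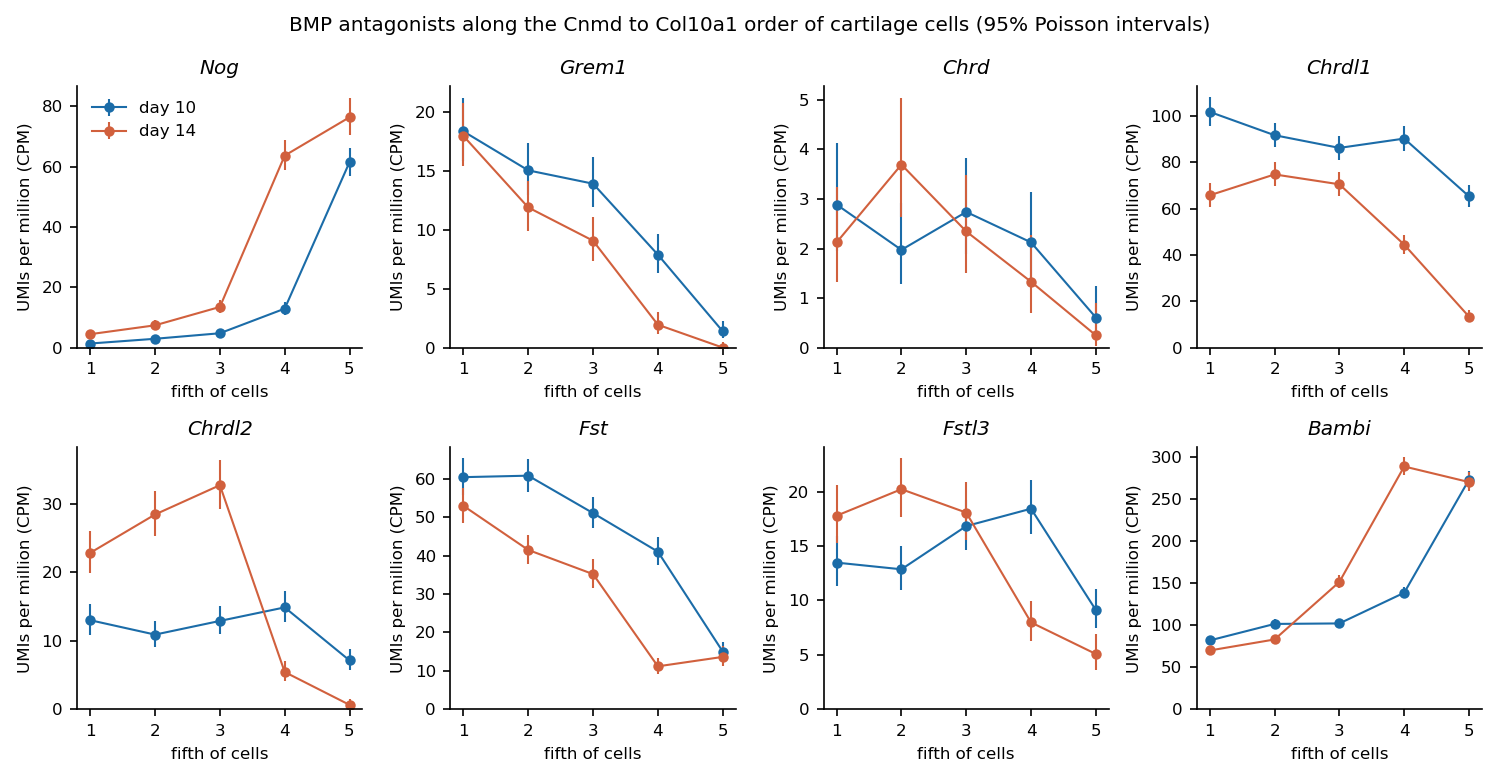
Level (CPM, axes from 0) of the antagonists in 5 bins of equal cell number of *Cnmd*-high and *Col10a1*-high cells, ordered from high *Cnmd* to high *Col10a1*, on days 10 and 14, with exact 95% Poisson intervals. *Nog* goes from 1.35 to 61.5 CPM on day 10 and from 4.45 to 76.4 CPM on day 14, and *Grem1* from 18.4 to 1.39 CPM and from 18.0 to 0 CPM.

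Within the *Col10a1*-high cells, a further split was made after the data had been seen, into an *Ihh* side and an *Mmp13* side of equal cell number (*Mmp13* encodes the collagenase of late hypertrophic cartilage). *Nog* was at 91.1 CPM (81.1 to 102) on the *Ihh* side and 51.2 CPM (43.7 to 59.7) on the *Mmp13* side on day 10, and at 88.3 (81.8 to 95.2) and 58.5 CPM (53.1 to 64.2) on day 14. *Bambi* took the same direction, at 319 and 190 CPM on day 10 and 343 and 225 CPM on day 14. *Fst* took the other, at 15.6 and 25.9 CPM on day 10 and 3.14 and 23.2 CPM on day 14. The higher value of day 14 was close to the 20.2 CPM in *Ptprc*-positive cells, and the lower was under the interval there (12.4 to 31.2).

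In the *Aspn*-high cells, 5 bins of equal cell number were made by the level of *Postn*, which encodes the matrix protein periostin. *Fst* was highest where *Postn* was lowest and went down step by step on day 14 (166, 124, 86.1, 68.2 and 48.7 CPM) and nearly so on day 10 (134, 103, 67.8, 77.6 and 43.7 CPM). *Chrdl1* also went down, from 27.6 to 5.54 CPM on day 10 and from 34.9 to 17.8 CPM on day 14. *Fstl3* went the other way, from 26.4 to 46.6 CPM and from 29.4 to 38.4 CPM, so the follistatin pair, alike across the 5 cell groups, had opposite slopes inside the group where both were highest. *Grem1* went from 48.4 to 12.7 CPM on day 10 and was at 8.34 CPM in the first and 8.09 CPM in the last bin on day 14. *Nog* had 23.2 CPM in the first bin of day 10 and 3.84 to 7.76 CPM in the others. On day 14 its bins lay between 2.67 and 5.56 CPM, inside the interval of its level in *Ptprc*-positive cells (0.245 to 7.31). The interval of the last bin over the first held 0 for *Bambi* on both days.

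**Figure D4:**
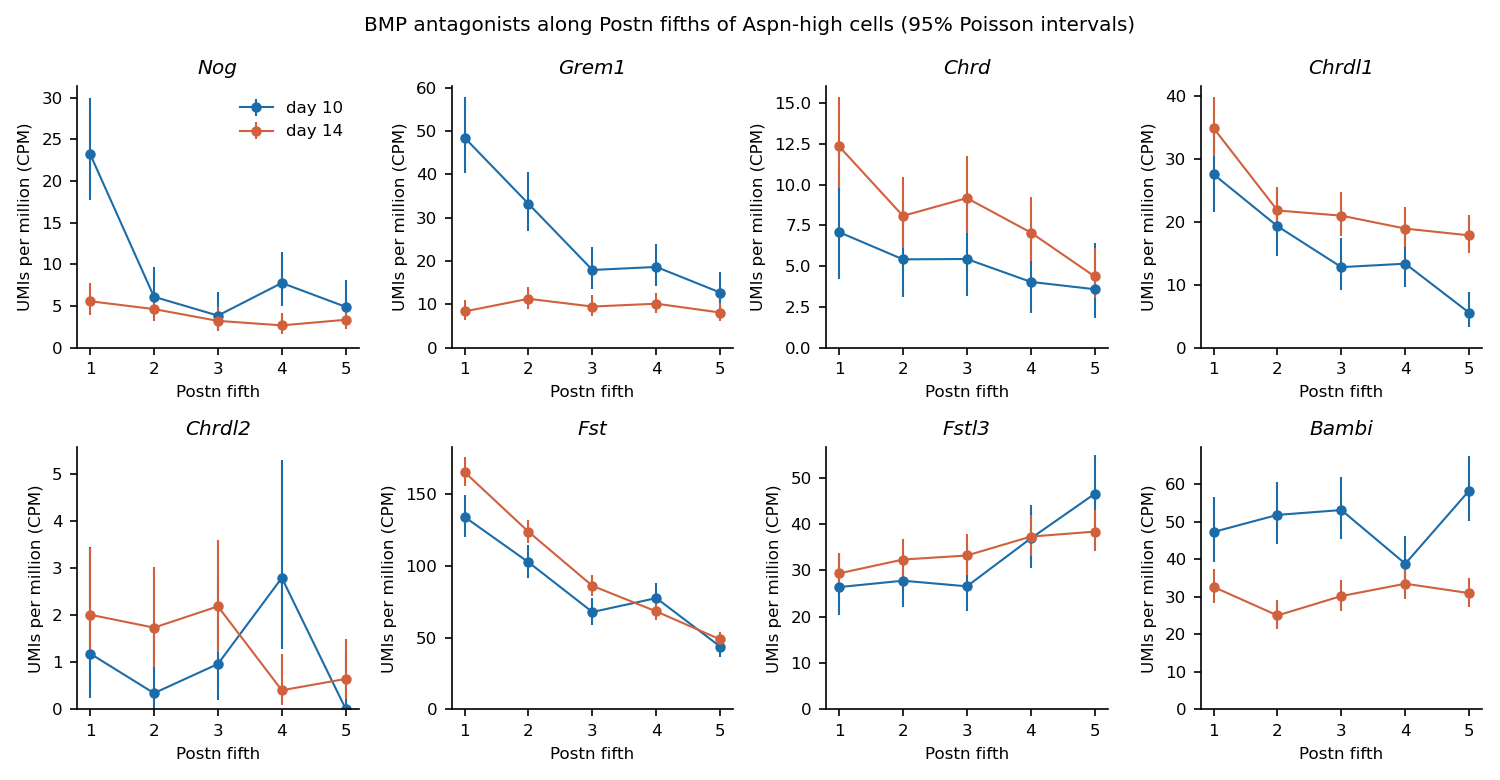
Level (CPM, axes from 0) of the antagonists in 5 bins of *Aspn*-high cells of equal number, ordered by *Postn*, on days 10 and 14, with exact 95% Poisson intervals. *Fst* goes from 134 to 43.7 CPM and from 166 to 48.7 CPM, and *Fstl3* from 26.4 to 46.6 CPM and from 29.4 to 38.4 CPM.

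Day 14 was compared with day 10 within each group. In *Aspn*-high cells 2 of 8 antagonists were at least 2-fold lower on day 14, *Grem1* (log2 ratio -1.42, -1.63 to -1.20) and *Nog* (-1.18, -1.54 to -0.82), where 3.17% of 13892 genes were, and none was 2-fold higher, where 2.74% were. The day 14 level of *Nog* here, 3.83 CPM, lay inside the interval of its level in *Ptprc*-positive cells (0.245 to 7.31). *Nog* moved with the group's boundary: with the marker limits 2 times lower, with all barcodes and without an upper limit on genes its ratio was -0.63, -0.86 and -0.88, which no longer reached 2-fold, while *Grem1* stayed past it. Smaller differences in the same cells were *Bambi* at -0.71, *Chrd* at 0.68 and *Chrdl1* at 0.57. Transcripts of other cells moved too, with the neutrophil markers summing to 256 CPM in *Aspn*-high cells on day 14 and to at most 6.39 CPM in any of the 5 groups on day 10, and *Col10a1* at 83.6 CPM on day 10 and 173 CPM on day 14. Without the cells in which neutrophil and macrophage markers made over 1% of UMIs, the ratio was -1.18 for *Nog* and -1.40 for *Grem1*; the part of *Col10a1* transcripts was not tested.

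In *Cnmd*-high cells *Chrdl2* was 2-fold higher on day 14 (1.05, 0.91 to 1.20), 1 of 8 against 2.12% of 14358 genes, and none was 2-fold lower, against 2.85%. It was close to the limit, at 0.89 with all barcodes and without an upper limit on genes. *Chrdl1* was at -0.38 and *Fst* at -0.28 in the same cells, and *Grem1* at -0.03 (-0.22 to 0.14). In *Col10a1*-high cells none of 6 antagonists differed 2-fold in either direction (2.60% of 12370 genes were higher and 2.20% lower), *Nog* was level (0.04, -0.11 to 0.20), and *Chrdl1* (-0.75) and *Fst* (-0.67) were lower by less. In *Ifitm5*-high cells *Chrdl1* was 2-fold lower (-1.31, -1.87 to -0.75), 1 of 6 against 2.57% of 10174 genes, and none was 2-fold higher, against 2.75%. In *Rgs5*-high cells only *Fst* (-0.69), *Fstl3* (-0.82) and *Bambi* (0.45) had enough UMIs, and none differed 2-fold, against 4.27% of 9093 genes higher and 2.56% lower.

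**Figure D5:**
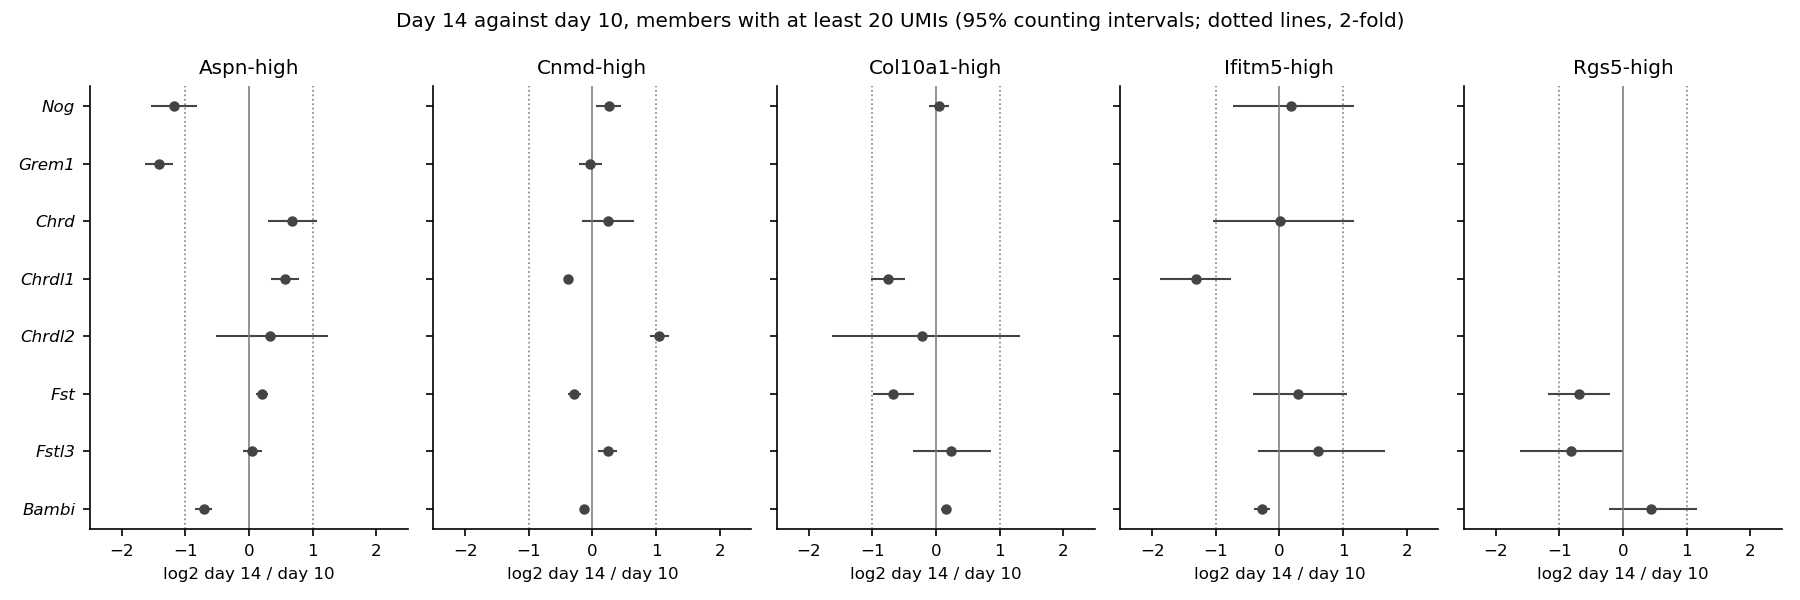
Log2 ratio of day 14 over day 10 of each antagonist within a cell group, with exact 95% binomial intervals of counting error, from 1 library per day. Past 2-fold are *Grem1* (-1.42) and *Nog* (-1.18) in *Aspn*-high cells, *Chrdl2* (1.05) in *Cnmd*-high cells and *Chrdl1* (-1.31) in *Ifitm5*-high cells. The day 14 level of *Nog* in *Aspn*-high cells lies inside the interval of its level in *Ptprc*-positive cells.

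On day 7 the 56 *Cnmd*-high cells already held the antagonists of the later *Cnmd*-high cells, *Bambi* at 156 CPM (134 to 181), *Chrdl1* at 78.1 (62.8 to 96.2), *Fst* at 41.3 (30.3 to 54.9), *Fstl3* at 14.9, *Chrdl2* at 10.5, *Grem1* at 7.90, *Nog* at 5.27 and *Chrd* at 2.63 CPM. *Bambi* was lower on days 10 and 14 (log2 ratio -0.32, -0.54 to -0.10, and -0.45, -0.67 to -0.22). *Chrdl2* was higher on day 14 (1.36, 0.55 to 2.32), and *Nog* just so (1.14, 0.01 to 2.60, from 6 UMIs on day 7). The other intervals against day 7 held 0. The neutrophil markers summed to 2093 CPM in these day 7 cells, and their part in the differences was not tested.

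Within a group, some antagonists were seen in the same thinned cells less or more often than others, given here as a description. In *Cnmd*-high cells on day 10, *Fst* was seen in 3.70% of the cells with a *Chrdl2* UMI and in 16.3% of those without. *Bambi* was seen in 59.3% of the *Cnmd*-high cells with a *Nog* UMI and in 33.1% of those without on day 10, and on day 14 in 16.8% of those with *Fst* and 33.2% of those without. In *Col10a1*-high cells, however, *Bambi* was seen about equally with and without *Nog*, in 59.7% and 62.4% on day 10 and in 63.8% and 60.2% on day 14. In *Aspn*-high cells on day 10, *Fstl3* was seen in 14.2% of the cells with *Fst* and 15.7% of those without, and on day 14 the order was the other, 17.9% and 13.5%.

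The ligands of the pathway had their own places. Of 15 BMP, GDF and activin genes 13 could be compared, and 4 were at least 2-fold higher on both days in *Col10a1*-high cells (*Bmp2*, *Bmp6*, *Bmp8a* and *Gdf5*), 5 in *Ifitm5*-high cells (*Bmp3*, *Bmp4*, *Bmp7*, *Bmp8a* and *Inhbb*), 2 in *Rgs5*-high cells and 1 each in *Aspn*-high and *Cnmd*-high cells. The share of all genes was 6.19%, 3.66%, 11.0%, 11.1% and 3.46% in the same order. *Bmp2* was at 272 and 258 CPM in *Col10a1*-high cells on days 10 and 14, the cells of *Nog*, and between 8.16 and 71.2 CPM in the other 4 groups. *Bmp3*, itself an inhibitory BMP, was at 58.8 and 91.9 CPM in *Ifitm5*-high cells and at most 4.47 CPM in the other 4 groups. *Bmp8a* was at 66.3 and 55.0 CPM in *Col10a1*-high and 51.0 and 44.0 CPM in *Ifitm5*-high cells. *Inhba*, which encodes the activin A subunit that follistatins bind, was highest where *Fst* and *Fstl3* were, in *Aspn*-high cells (381 and 248 CPM), followed by *Cnmd*-high cells (306 and 184 CPM).

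Summed over the secreted antagonists and over the ligands, there were 0.367 antagonist UMIs per ligand UMI in *Aspn*-high cells on day 10 (0.351 to 0.384) and 0.589 on day 14 (0.571 to 0.608), and 0.477 and 0.695 in *Cnmd*-high cells. The ratio was lower in 2 groups and nearly level between the days, at 0.246 and 0.247 in *Col10a1*-high and 0.200 and 0.178 in *Ifitm5*-high cells, and was 0.457 and 0.339 in *Rgs5*-high cells. The list of ligands counts the inhibitory *Bmp3*, at 58.8 and 91.9 CPM in *Ifitm5*-high cells, where the ligands summed to 285 and 260 CPM. The ratio without *Bmp3* was not computed. The sums hold UMIs that the *Ptprc*-positive cells do not tell apart from RNA of other cells. Of these, *Fst* and *Fstl3* gave 68 and 46 of the 255 antagonist UMIs of *Ifitm5*-high cells on day 14. In *Aspn*-high cells the secreted antagonists were about as abundant on both days (172 and 176 CPM), and the ligands went from 467 to 298 CPM. *Inhba* alone made 381 CPM of the first and 248 CPM of the second. These are counts of transcripts and not of proteins.

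Of 10 receptor genes compared, 2 were 2-fold higher in *Aspn*-high cells on both days (*Acvr1* and *Bmpr1b*), against 11.1% of all genes. It was 1 in *Ifitm5*-high (*Acvr2b*, against 3.66%) and 1 in *Rgs5*-high cells (*Acvrl1*, against 11.0%). None was in *Cnmd*-high and *Col10a1*-high cells, against 3.46% and 6.19%. *Bmpr2*, the type II BMP receptor, lay between 60.1 and 128 CPM in all groups, *Bmpr1a*, a type I receptor, between 29.2 and 84.5 CPM, *Acvr1* between 15.2 and 63.4 CPM and the co-receptor *Rgma* between 0.546 and 21.3 CPM. Among the other extracellular modulators, *Nbl1*, *Fstl1*, *Tll1* and *Htra1* were 2-fold higher on both days in *Aspn*-high cells, the group with the most *Fst*. *Fstl1*, a secreted glycoprotein of the follistatin family, stood at 1367 and 1576 CPM there, at 1299 and 984 CPM in *Rgs5*-high cells, and at 51.5 to 89.0 CPM in *Col10a1*-high and *Ifitm5*-high cells. The protease gene *Htra1* reached 741 CPM, *Smoc2* was highest in *Cnmd*-high cells on day 10 (815 CPM) and in *Col10a1*-high cells on day 14 (631 CPM, against 619 in *Cnmd*-high cells), and *Bmp1*, which encodes a protease that cleaves chordin, was highest in *Ifitm5*-high cells (322 and 375 CPM).

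Of the 8 SMAD and SMURF transducers only *Smad9* was 2-fold higher in a group on both days (*Ifitm5*-high cells), and *Smad4* lay between 48.7 and 79.9 CPM, *Smad1* between 33.9 and 98.8, *Smurf2* between 25.8 and 55.3 and *Smad5* between 22.4 and 39.1 CPM. The BMP target genes were mixed. Of 11 compared, 3 were higher in *Rgs5*-high (*Id4*, *Msx1* and *Hey1*), 2 each in *Col10a1*-high (*Id4* and *Dlx5*) and *Ifitm5*-high (*Smad6* and *Dlx3*), and 1 each in *Cnmd*-high (*Id1*) and *Aspn*-high cells (*Hey1*). *Id3*, an inhibitor of helix-loop-helix factors that BMP induces, was lowest in the cartilage groups (280 to 307 CPM against 500 to 807 CPM in the others). *Smad7*, an inhibitory SMAD, was highest in *Col10a1*-high cells on both days (232 and 177 CPM), *Id1* in *Cnmd*-high cells (218 and 234 CPM) and *Id2* in *Aspn*-high cells on day 10 (127 CPM) and in *Cnmd*-high cells on day 14 (99.8 CPM). In these lists, too, the share of all genes past the rule was 11.1% in *Aspn*-high, 3.46% in *Cnmd*-high, 6.19% in *Col10a1*-high, 3.66% in *Ifitm5*-high and 11.0% in *Rgs5*-high cells.

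The genes most like each antagonist were sought by Pearson's r of log2 levels over the 10 sums of 5 groups and 2 days, among 4049 genes. The sums of a day share a library and the groups recur, so r is a description. *Usp53* was most like *Nog* (0.98), *Thbs3* most like *Grem1* (0.95), *Plagl1* most like *Chrdl1* (0.96), *Sfrp5* most like *Chrdl2* (0.98), *Elk3* most like *Fst* (0.99), *Fbln2* most like *Fstl3* (0.98) and *Cd200* most like *Bambi* (0.98), next to *Pth1r* (0.97), the parathyroid hormone receptor gene. Among the antagonists themselves *Fst* and *Fstl3* were the closest pair (0.96), and *Fst* and *Bambi* the most opposed (-0.91).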

How the data were processed

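Single-cell 3′ transcriptomes (10x Genomics) of 3 callus libraries were analysed from the deposited counts, whole-number UMI counts per gene and cell barcode that the authors made with Cell Ranger against mm10 (version 3.0 in the submitters' processing notes, 3.1.0 in the matrix header). The sources used here differ on the kit's chemistry. No normalization had been applied, and 0 columns belonged to no sample. Cells with 500 to 5000 genes, at most 10% mitochondrial and 5% hemoglobin UMIs and no *Ptprc* UMI were kept and grouped by 5 markers as described. A cell high for several markers went to the one furthest above its limit (*Aspn* 2986, *Cnmd* 1648, *Col10a1* 14998, *Ifitm5* 489 and *Rgs5* 2123 CPM). No doublet caller was run, and cells above several limits were left out in an alternative. UMIs were summed per group and library and divided by the group's total (CPM). Genes needed 20 UMIs in the sums compared. Groups under 20 cells got no level. A count of 0 was set to a floor of 3 counts, as a bound. Median depths were 5056, 17370 and 15802 UMIs per cell. With 1 library per day, no test was run.

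Named genes were all 9 members, the 4 highest genes of each pathway list, and the genes most like each member reaching 10 CPM. Other list genes past the 2-fold rule are named beside their counts and were chosen after their values were seen. The members and lists were chosen with earlier results of these data known. The count of the list of other extracellular modulators is not reported here. The scripts were tested on simulated counts. Python 3.11.15, numpy 2.4.6, scipy 1.17.1, pandas 2.3.3 and matplotlib 3.10.9 were used.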

Additional observations from a re-analysis of the deposited data

How the results depend on the processing

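No paired analysis was possible because there is 1 library per day. Between-animal spread is unknown, library and day cannot be told apart, and groups of few cells limit the *Ifitm5*-high and *Rgs5*-high values. Of 100 counts, 720 levels and 886 log2 ratios recomputed, 83, 606 and 750 stayed within 1.5 times the count or inside the counting interval, and no ratio past 2-fold changed its sign. The exceptions among the counts follow; their cause was not tested. Of 2 members higher in *Aspn*-high cells, 0 remained with size factors from medians of ratios. Members differing between day 14 and day 10 in *Aspn*-high cells numbered 2, and 1 (*Grem1*) with the marker limits 2 times lower, with all barcodes or without an upper limit on genes, and 4 at a fold of 1.5. In *Cnmd*-high cells 1 differed, and 0 with all barcodes or no upper limit. In *Col10a1*-high cells 0 differed, 1 with the marker limits 2 times higher (*Fst*) or no minimum of UMIs (*Grem1*), and 2 at a fold of 1.5. In *Ifitm5*-high cells 1 differed, and 2 with the higher limits, no minimum, or a fold of 1.5. In *Rgs5*-high cells 0 differed, 1 with all barcodes (*Grem1*) or the mean over cells (*Fstl3*), and 2 with no minimum or a fold of 1.5. Of 90 shares of cells 65 moved with thinning to 2000 UMIs. With other numbers of bins 10 of 29 first-to-last ratios moved, and 17 of 36 levels on the *Ihh* or *Mmp13* side of *Col10a1*-high cells lay outside the interval of the whole group. The split of *Col10a1*-high cells by *Ihh* and *Mmp13* was added after seeing the data.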
